A study of Mus musculus and synthetic RNA with 74 samples.

Results

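The BCL2 family decides at the mitochondrial outer membrane whether a cell starts apoptosis, and 10 of its genes were examined in mouse embryos from crosses of Mettl16 heterozygotes: the effectors Bax and Bak1, the anti-apoptotic genes Bcl2, Bcl2l1 (BCL-XL) and Mcl1, and the BH3-only genes Bbc3 (PUMA), Pmaip1 (NOXA), Bid, Bcl2l11 (BIM) and Bad. The genes were taken by symbol, and all 10 were found among the 21890 genes listed at either stage. Mettl16 encodes an m6A RNA methyltransferase. The embryos were E2.5 morulae and E3.5 blastocysts, sequenced one embryo at a time with Smart-seq2 on polyadenylated RNA. Wild-type (WT, Mettl16 +/+), heterozygous (HET, Mettl16 +/-) and homozygous mutant (KO, Mettl16 -/-) embryos were included. The morulae comprised 12 KO, 14 HET and 5 WT embryos, and the blastocysts 12 KO, 9 HET and 18 WT embryos. The KO allele carries a cassette of stop codons in exon 3 and came from 1 germline mouse line, made in B6D2F1/J embryos and bred to C57BL/6JRj. No agent was given to the embryos, and the mothers had been superovulated. The genotype of each embryo was read by the authors from its own Mettl16 reads.

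The tables give no value for a single embryo. They hold the mean normalized count of each gene over all embryos of a stage, 31 at E2.5 and 39 at E3.5, with the genotypes pooled. Every level below is therefore the authors' mean with no error, no difference was tested, and the genotypes were not compared here. The level of Mettl16 in each genotype could not be checked for the same reason. The gene means summed to 23557112 at E2.5 over 20330 genes and to 27145016 at E3.5 over 21199 genes. The number of reads of each embryo is not used here. The stages were normalized separately and hold different shares of each genotype, so a difference between stages cannot be told apart from a difference in genotype mix or in library preparation, nor can fewer cells expressing a gene be told apart from less RNA per cell.

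In mammalian cells BAX and BAK, once active, assemble in the outer mitochondrial membrane and release cytochrome c, which joins APAF1 and caspase 9 in the apoptosome. The anti-apoptotic proteins hold the effectors and the BH3-only proteins in check. BH3-only proteins carry the stress signal: PUMA and NOXA are known as products of p53 target genes, BID is activated when caspase 8 cuts it, BAD is regulated by phosphorylation, and BIM is made as the splice forms EL, L and S, which share their BH3 region.

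The stage labels were checked against marker genes. Means of the trophectoderm genes Krt8, Gata3 and Cdx2 were 651, 511 and 171 at E2.5 and, in the same order, 30838, 9266 and 1940 at E3.5. Of the inner cell mass genes, Nanog went from 552 at E2.5 to 4161 at E3.5 and Sox2 from 13.6 to 165. Pou5f1 went the other way, from 9017 to 3527. Of the primitive endoderm genes, Gata6 was nearly level at 3569 and 3676, while Sox17 went from 71.5 to 174. The oocyte gene Zp3 went from 1587 to 104. Of 12 embryo markers, 7 had a higher and 5 a lower share of the total at E3.5. Among 7 markers of cells outside the embryo, Fshr and Hbb-bt were not listed at E2.5 and stood below 1 at E3.5, while Amh, Cyp19a1 and Ptprc did not exceed 2.48 at either stage. Ovgp1, a gene of the oviduct lining, had means of 320 and 25.3, and the haemoglobin gene Hba-a1 of 49.6 and 12.0. The 7 markers together made up 0.00158% of the total at E2.5 and 0.000152% at E3.5, which does not measure how much RNA of other cells was present. At E2.5 the Ovgp1 mean was above those of the members Bcl2l11 (275), Pmaip1 (126), Bbc3 (26.6), Bak1 and Bcl2. It was below those of the other members. The part of RNA from other cells in the differences between stages given below was not tested.

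The sequences in which the deposited counts can tell forms of a member apart are shown first. Bcl2l11 lies on chromosome 2 (mm10, plus strand), and its splice forms differ by a segment that only the EL form keeps and by an exon that EL and L keep and S skips. The segment, chr2:128128757-128128924, is coding sequence in EL and is removed as an intron of its own in L. In S, which skips the next exon, it is part of a longer intron of 18328 bases, chr2:128128757-128147084. Its first and last letters, in capitals, are the donor and acceptor dinucleotides of the removal in L. In S the donor is the same, and the acceptor lies at the end of the longer intron. The 168 bases of the segment are the length of 56 codons.
Bcl2l11 segment kept only in EL: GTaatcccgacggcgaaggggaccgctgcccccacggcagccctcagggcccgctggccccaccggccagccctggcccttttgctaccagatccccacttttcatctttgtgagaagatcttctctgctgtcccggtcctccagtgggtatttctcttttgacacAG
The exon that follows it directly, chr2:128128925-128129014, has 90 bases, the length of 30 codons. The reading frame was not looked at, so neither number is a count of whole codons.
Bcl2l11 exon kept in EL and L: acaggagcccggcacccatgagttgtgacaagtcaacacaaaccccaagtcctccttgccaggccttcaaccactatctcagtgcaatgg

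Bcl2l1, on the minus strand of chromosome 2, has a distal first exon at chr2:152831603-152831728 and a proximal one at chr2:152830386-152830717 in the deposited annotation. The 250 bases before each start are given from RefSeq (GRCm38.p6), since the counts differed between these first exons. They were searched on both strands for the TATA box motif TATAAA, for the motif CCAAT, and for the GC box motif GGGCGG, none of which contains another, and held none of the 3, so no letter is in capitals.
Bcl2l1 before the distal start, chr2:152831729-152831978: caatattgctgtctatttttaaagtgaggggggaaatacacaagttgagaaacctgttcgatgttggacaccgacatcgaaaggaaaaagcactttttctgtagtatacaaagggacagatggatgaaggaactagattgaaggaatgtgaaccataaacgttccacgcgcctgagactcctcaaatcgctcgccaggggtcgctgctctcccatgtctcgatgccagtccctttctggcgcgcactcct
Bcl2l1 before the proximal start, chr2:152830718-152830967: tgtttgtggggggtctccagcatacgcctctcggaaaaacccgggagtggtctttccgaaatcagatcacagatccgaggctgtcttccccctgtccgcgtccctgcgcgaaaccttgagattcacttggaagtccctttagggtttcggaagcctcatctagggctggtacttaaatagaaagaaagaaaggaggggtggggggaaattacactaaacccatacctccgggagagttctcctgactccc
RefSeq windows of this kind were matched for 9 of the 10 genes, 15 windows in all. GGGCGG was found in 10 of the 15 windows and in 32.7% of all 32851 promoter windows, CCAAT in 4 and in 33.9%, and TATAAA in 0 and in 12.4%. G and C made up 47.6% of the bases before the distal Bcl2l1 start and 53.2% before the proximal one, against a median of 52.4% over all windows. Over the 15 windows of the members the values ranged from 47.6% to 81.6%, the highest in a window of Bbc3. The part of base composition in the number of windows with GGGCGG was not tested. Some genes gave several windows, and windows of Bbc3 overlap in part, so the 15 are not independent. The motif in which METTL16 methylates RNA in vitro, UACAGAGAA, was in no annotated transcript of the 10 members (GENCODE vM21) and in transcripts of 1362 of 21384 listed genes (6.37%). This says only that these letters are absent from the annotated transcripts.

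The family was led by Bax at both stages, and Bak1 and Bcl2 were the lowest of its members. To compare genes with one another, each mean normalized count was divided by the mean length of the gene's RefSeq transcripts in kb. Genes whose 2 stage means averaged at least 10, 13510 in all, are called ranked genes. Of the 10 members, 8 were among them, and Bak1 and Bcl2 were not. Percentiles of the level per kb were taken over the ranked genes with a known transcript length.

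**Figure D1:**
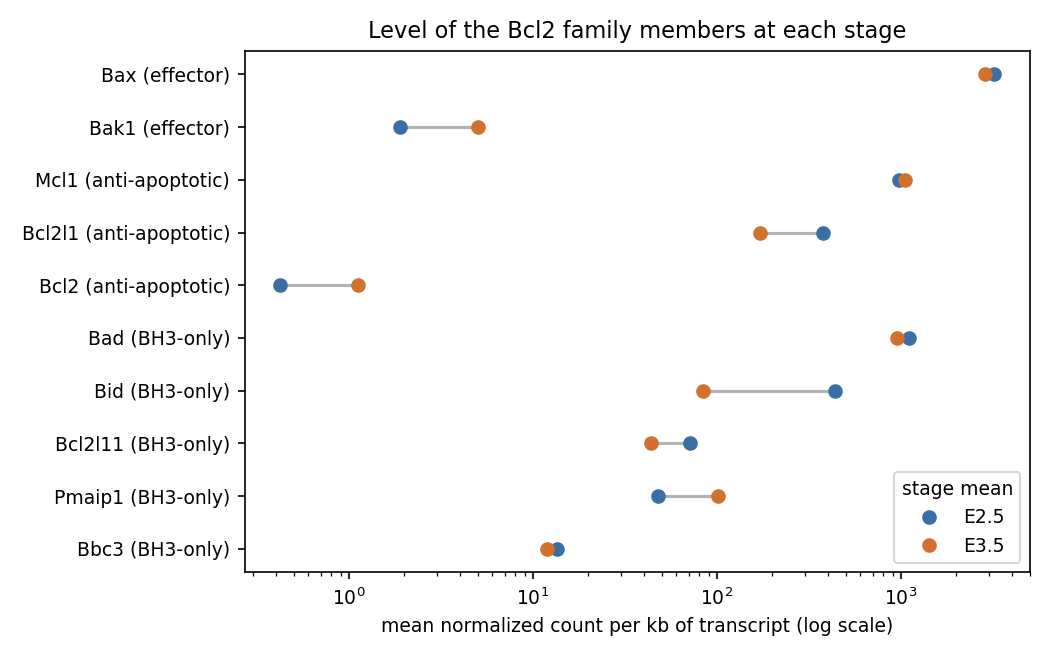
Mean normalized count per kb of transcript of each member at E2.5 (blue) and E3.5 (orange), on a log axis, grouped as effector, anti-apoptotic and BH3-only. Each point is the authors' mean over all embryos of a stage, so no error is drawn; Bax is highest at 3201 and 2843 and Bcl2 lowest at 0.42 and 1.12.

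Among the effectors, Bax had a mean normalized count of 2782 at E2.5 and 2471 at E3.5. Per kb its level was 3201 and 2843, above 94.8% and 93.1% of the ranked genes. Bak1, which can replace Bax in many tissues, had means of 3.79 and 10.1, or 1.89 and 5.04 per kb. The level of Bax per kb was thus 1693 times that of Bak1 at E2.5 and 564 times at E3.5. The third effector of the family, Bok, which is known to act apart from the anti-apoptotic proteins, stood at 1457 and 782 per kb, so that Bax exceeded it 2.20 times and 3.63 times. Bax and Bok were thus the abundant effector genes at both stages, and Bak1 was far below them.

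Of the anti-apoptotic genes, Mcl1 was the most abundant and Bcl2 the lowest. Mcl1, whose protein is short-lived and is needed for the embryo to develop around implantation, had means of 3405 and 3654, or 976 and 1048 per kb, above 86.3% and 85.3% of ranked genes. Bcl2l1 had means of 841 and 384, or 375 and 171 per kb. It stood above 75.1% of ranked genes at E2.5 and 56.6% at E3.5. Bcl2, the founding gene of the family, had means of 1.98 and 5.22, or 0.42 and 1.12 per kb. The ratio of Mcl1 to Bcl2l1 per kb was 2.60 at E2.5 and 6.12 at E3.5.

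The BH3-only genes were dominated by Bad, and the order below it differed between stages. Bad had means of 1317 and 1145, or 1098 and 955 per kb, above 87.5% and 84.3% of ranked genes. Bid was next at E2.5 with a mean of 828 (438 per kb), but had a mean of 158 (83.5 per kb) at E3.5. Bcl2l11 had means of 275 and 168, or 71.2 and 43.5 per kb. Pmaip1 had means of 126 and 267, or 47.7 and 101 per kb, and so stood below Bcl2l11 at E2.5 and above both Bcl2l11 and Bid at E3.5. Bbc3 was the lowest of the 5, with means of 26.6 and 23.5, or 13.5 and 11.9 per kb, above 24.1% and 14.9% of ranked genes. From the highest down, the order per kb was Bax, Bad, Mcl1, Bid, Bcl2l1, Bcl2l11, Pmaip1, Bbc3, Bak1 and Bcl2 at E2.5. At E3.5 it was Bax, Mcl1, Bad, Bcl2l1, Pmaip1, Bid, Bcl2l11, Bbc3, Bak1 and Bcl2. Whether neighbours in this order differed by more than the spread between embryos cannot be judged from pooled means.

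Summed over roles, the balance between the roles per kb differed little between stages. The effectors made up 51.5% of the summed level per kb at E2.5 and 54.1% at E3.5, almost all of it Bax. The anti-apoptotic genes made up 21.7% and 23.2%, and the BH3-only genes 26.8% and 22.7%. The ratio of anti-apoptotic to pro-apoptotic members was 0.277 and 0.302. Within each role the makeup shifted more. Mcl1 held 72.2% of the anti-apoptotic level at E2.5 and 85.9% at E3.5. Bad held 65.8% and 79.9% of the BH3-only level, while Bid held 26.2% and 6.99%. Without the highest member of each side the ratio of anti-apoptotic to pro-apoptotic genes was 0.225 and 0.144, and from exon sums with all 10 members it was 0.154 and 0.198.

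Between E2.5 and E3.5 most of the members were lower or nearly level, while most genes of the embryo were higher. Stages were compared by the share of each gene in the stage's total. The median ranked gene had a log2 ratio of E3.5 over E2.5 of 0.40, and the median of the 8 ranked members was -0.39. Of the 8, 1 was higher at E3.5, where 61.1% of all ranked genes were higher, and 7 were lower, where 38.9% were lower. The number higher was 2 of 8 from exon sums, with Mcl1 added, and 3 of 8 from the last exon alone, with Bbc3 added as well. The share of all genes was not counted in these ways, so 61.1% is not the background for them. The median gene had a log2 ratio of 0.95 by the last exon and 0.31 by all exons of the longest transcript. The members at least 2-fold lower were 2 of 8, against 18.7% of ranked genes, and those at least 2-fold higher were 0 of 8, against 34.8%. Together the 10 members made up 0.0408% of the total at E2.5 and 0.0305% at E3.5. These counts describe the genes without a test.

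Bid showed the largest difference of the ranked members, with a log2 ratio of -2.60, or -3.00 relative to the median gene. Bcl2l1 followed at -1.34 and Bcl2l11 at -0.92. Bad at -0.41, Bbc3 at -0.38, Bax at -0.38 and Mcl1 at -0.10 were below the median gene as well. Pmaip1 was the one ranked member with a higher share at E3.5, with a log2 ratio of 0.87, or 0.47 relative to the median gene. Bak1 and Bcl2 had ratios of 1.21 and 1.20 on means of about 10 or less.

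**Figure D2:**
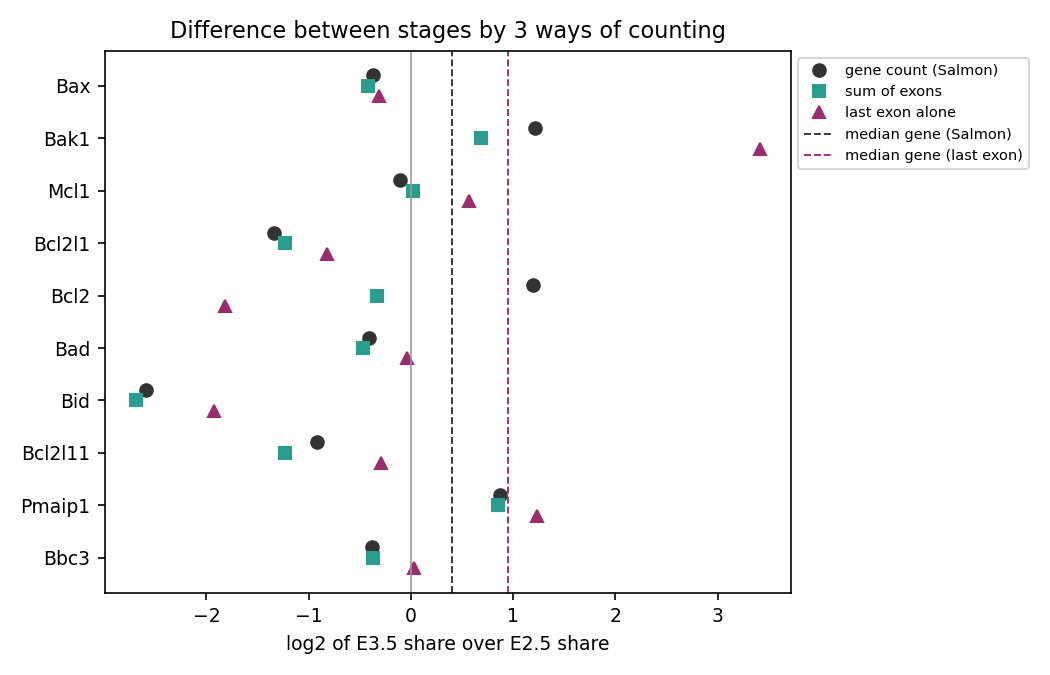
Log2 of the E3.5 share over the E2.5 share of each member from gene counts (circles), summed exon counts (squares) and the last exon alone (triangles), with the median of all genes as dashed lines at 0.40 for gene counts and 0.95 for the last exon. Bid and Bcl2l1 lie left of 0 and Pmaip1 right of 0 by all 3 ways of counting, while Mcl1, Bbc3 and Bcl2 cross 0.

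The spread of reads along transcripts differed between stages and bears on these ratios. In the exon counts, taken over the longest RefSeq transcript of each gene with at least 2 exons, the last exon held a median of 24.4% of a gene's exon counts at E2.5 and 40.4% at E3.5. The log2 ratio of the last exon exceeded that of the first exon in 10357 of 11727 genes (88.3%), by a median of 1.66. All 8 ranked members showed the same direction, and 3 of the 8 by more than the median gene. The part of this in the differences between stages was not tested. The last exon alone gives a measure that does not use the 5' end, but it does not take the coverage difference out. The last exon exceeded the first by a log2 of 0.51 in Bax and 2.29 in Bbc3. By the last exon the median gene had a log2 ratio of 0.95, against 0.31 by all exons. Of the 8 ranked members, 7 were below 0.95, all but Pmaip1 at 1.23. Bid was at -1.92, Bcl2l1 at -0.82, Bax at -0.32, Bcl2l11 at -0.29, Bad at -0.04, Bbc3 at 0.034 and Mcl1 at 0.57.

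**Figure D3:**
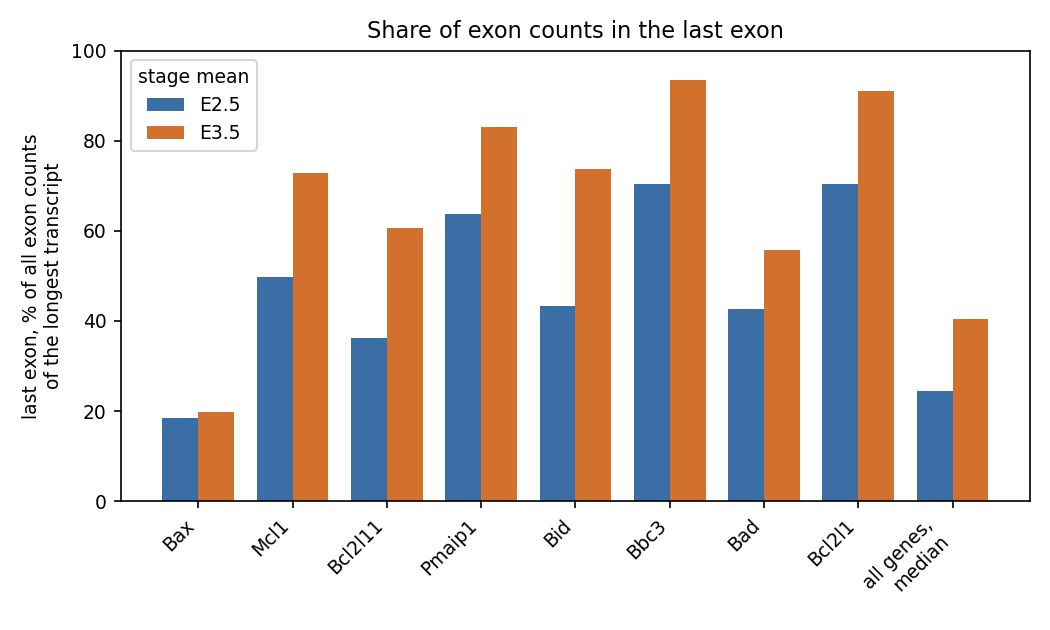
Share of exon counts that fell in the last exon of the longest transcript, in percent, for the 8 ranked members and for the median of all genes, at E2.5 (blue) and E3.5 (orange). The share is higher at E3.5 in each of the 8, from 18.4% to 19.7% in Bax up to 70.5% to 93.5% in Bbc3.

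The difference in coverage between 5' and 3' exons varied among the members. In Bax, a gene with 6 exons on chromosome 7 (chr7:45461695-45466898, minus strand), the last exon held 18.4% of exon counts at E2.5 and 19.7% at E3.5, and its first exon had mean counts of 625 and 297. In Mcl1 (chr3:95658721-95663179, plus strand) the first exon had mean counts of 1060 and 285, while the last had 2163 and 2694. The share of Mcl1 in the stage total therefore depended on which exons were counted. In Bid (chr6:120893119-120916820, minus strand) all 6 exons were lower at E3.5, from 62.4 to 2.88 in the first and from 545 to 121 in the last. In Pmaip1 the last exon had mean counts of 99.4 and 196 and the first 25.1 and 18.4, so its higher share at E3.5 came from the last of its 3 exons. In Bbc3 (chr7:16309583-16318334, plus strand) the first 3 exons had mean counts between 0.33 and 0.62 at E3.5, and its level there rested on the last exon with 19.0.

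The low gene counts of Bak1 and Bcl2 did not lie evenly on their exons. In Bak1 (chr17:27019812-27028626, minus strand) the exon with the most counts at E2.5 was exon 4 with 4.10, beside an intron with 12.8, and the other 5 exons were below 1. At E3.5 its last exon had 5.85 counts, against 0.65 at E2.5. Ggnbp1 overlaps Bak1 on the plus strand, and because the libraries keep no strand, reads of the 2 genes cannot be told apart where they overlap. In Bcl2 (chr1:106538176-106714290, minus strand) no exon reached a mean of 1 at either stage, and the antisense gene D630008O14Rik overlaps it. For Bcl2 the exon sums gave a log2 ratio of -0.33 where the gene counts gave 1.20, so no direction can be given.

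For Bcl2l11, counts fell on the segment of the EL form at both stages. The segment shown above had a mean count of 27.8 at E2.5 and 6.66 at E3.5. The exon part before it had 86.7 and 17.5, and the exon after it, kept in EL and L, had 72.7 and 16.6. The segment's count was thus 32.0% and 38.1% of the part before it and 38.2% and 40.2% of the exon after it. The exon of EL and L in turn had 95.4% of the count of the exon that EL, L and S share at E2.5, and 68.4% at E3.5. It lies 5' of the shared exon, and counts at E3.5 were shifted towards 3' exons, as described above. The part of this shift in the difference between 95.4% and 68.4% was not tested. The last exon of EL, L and S had 154 and 105 counts, and the alternative last exon 4.63% and 3.74% of that. Reads that cross a boundary appear to be counted in each feature they touch, and features differ in length. These percentages are therefore not proportions of the splice forms. The study's methods describe intron coordinates shortened at both ends to keep out reads of the exons beside them. Whether this holds for the segment, which is listed as an intron, was not checked. The percentages show only that the EL segment had fewer counts than its neighbours, with reads on the exon that S lacks.

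**Figure D4:**
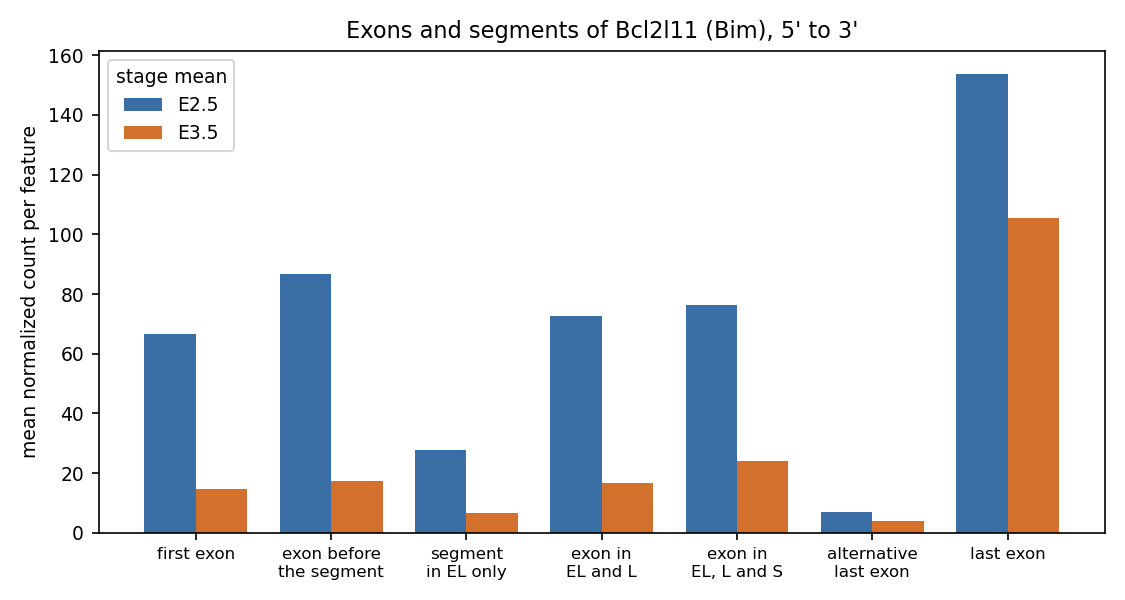
Mean normalized count of each informative exon or segment of Bcl2l11, from 5' to 3', at E2.5 (blue) and E3.5 (orange). The segment kept only in EL stands at 27.8 and 6.66, below the exon parts on either side of it, and the last exon is the highest at 154 and 105.

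For Bcl2l1, most first-exon counts lay on the distal exon. It had 39.5 mean counts at E2.5 and 4.60 at E3.5, against 4.06 and 0.72 on the proximal exon, 9.72 and 6.36 times as many although the distal exon is the shorter one at 126 bases against 332. The coding exon that all its transcripts share had 249 and 27.7 counts, and the last exon 604 and 287. The alternative last exon had 0 counts at both stages. The intron of 47144 bases between the shared coding exon and the last exon had 175 counts at E2.5 and 419 at E3.5. At E3.5 this intron thus held more counts than the last exon, but at 8.89 per kb against 178. Cox4i2, which overlaps another intron of Bcl2l1, lies outside this one.

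Bad has first exons at chr19:6941861-6942440 and chr19:6942562-6942624 (plus strand). The downstream one had 135 and 47.3 mean counts and the upstream one 69.6 and 23.6, a ratio of 1.94 and 2.00. Gpr137 runs antisense over the upstream exon, so some of its reads may belong to that gene. Bases before the downstream start are not printed because the upstream exon covers part of them.

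The summed intron count per kb was a median of 1.08% of the summed exon count per kb at E2.5 and 1.98% at E3.5, over 12869 genes. Mcl1 had 8.89% at E2.5, above 90.4% of genes and the highest of the 8 members when introns of any length were counted, and 5.39% at E3.5. Its intron of 273 bases had mean counts of 32.1 and 6.38 at the 2 stages, and that of 698 bases had 75.3 and 49.1. Bcl2l1 had 2.01% and 8.24%, Pmaip1 0.957% and 4.48%, Bcl2l11 0.970% and 2.62%, Bbc3 1.20% and 2.92%, Bad 0.463% and 1.75%, Bid 0.319% and 1.63%, and Bax 0.348% and 0.414%. Except in Mcl1, these values depend on the long introns. With introns of at least 1 kb left out, Bcl2l1 had 10.7% at E2.5, above Mcl1, and 2.57% at E3.5, so that its direction between stages turned. Bcl2l11 then had 2.36% and 2.21%, a turned direction as well, Bad 2.05% and 5.87%, and Bax 1.05% and 1.08%. The Bcl2l1 values then rested on an intron of 283 bases with mean counts of 8.11 at E2.5 and 0.695 at E3.5. Those of Bcl2l11 rested on introns of 622 and 807 bases, with 0.864 and 0.0519 counts at E3.5. On such low counts no direction can be given for these genes. Bbc3, Pmaip1 and Bid have no intron under 1 kb. In Bax, 80.9% of the intron counts at E2.5 and 70.3% at E3.5 lay in the first intron, chr7:45466272-45466741. That intron had 197 and 128 counts per kb, where the other 4 had 3.41 to 7.76 at E2.5 and 2.64 to 12.6 at E3.5. The read-through gene Gm45808 overlaps Bax on the same strand.

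The genes that act after the members in the pathway were counted in the same way, beside 61.1% of all ranked genes with a higher share at E3.5. Of 6 genes of the apoptosome and the caspases, all ranked, 5 had a higher and 1 a lower share at E3.5, with a median log2 ratio of 1.30, against 0.40 for all ranked genes. Cycs, the gene of cytochrome c, had means of 3519 and 11664 and a log2 ratio of 1.52, and Apaf1 one of 1.08. Casp9, the initiator caspase of the apoptosome, stood at 1.84. Casp6, the gene with the lower share, at -0.25, was the most abundant per kb of the caspases in this list at E2.5 and E3.5, with 2406 and 2332. Casp8, whose product cleaves BID, was the lowest of the list at both stages, with 3.24 and 4.95 per kb.

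Of the other 9 genes of the Bcl2 family, 4 were ranked, 2 of them higher and 2 lower at E3.5. Bcl2l2 (BCL-W), anti-apoptotic, had means of 75.8 and 316 and a log2 ratio of 1.86, so Bcl2l1 exceeded it 17.1 times per kb at E2.5 and 1.87 times at E3.5. Bok at -1.10 and Bcl2l10, known for its expression in oocytes, at -1.76 were lower. Bmf, a BH3-only gene, was at 0.48. Bcl2a1a, Bcl2a1b and Bcl2a1d, near-identical copies between which reads may be split, were below 1 at both stages.

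Of the 5 caspase inhibitors and their antagonists, 3 were higher and 2 lower at E3.5, a share close to that of all ranked genes, with a median log2 ratio of 0.67. Diablo, which releases caspases from their inhibitors, was the most abundant per kb at 1647 and 1597. Birc3 was lower at -1.27, and Birc2 and Xiap were higher at 1.13 and 0.67. Of the 5 genes of the p53 axis, 3 were higher and 2 lower, again close to that share. However, 4 of the 5 were below the median gene, and their median log2 ratio was 0.02, against 0.40 for all ranked genes. Only Ccng1, a p53 target, passed 2-fold, at 2.49. Trp53 itself had means of 3991 and 2397 and a log2 ratio of -0.94. Pmaip1 and Bbc3, the members named above as p53 targets, did not share a direction by gene counts, at 0.87 and -0.38. By its last exon Bbc3 was at 0.034. Cdkn1a, a p53 target outside the family, was at 0.02.

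**Figure D5:**
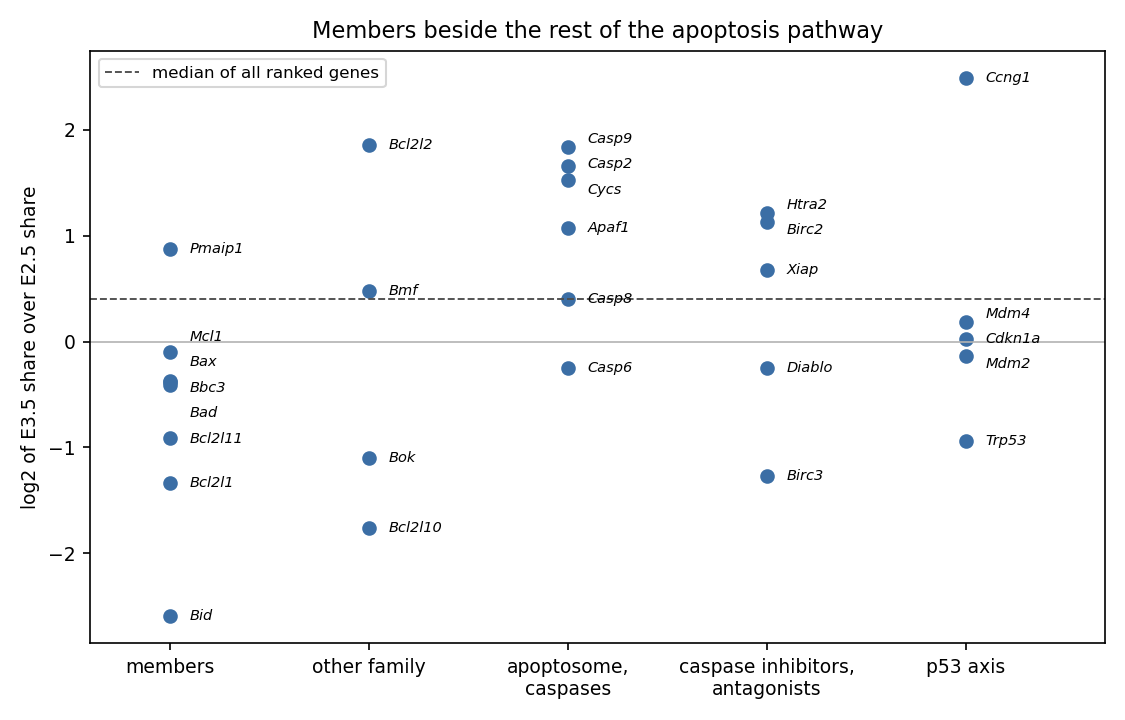
Log2 of the E3.5 share over the E2.5 share, from gene counts, of every ranked gene of 5 lists: the members, the rest of the family, the apoptosome and caspases, the caspase inhibitors with their antagonists, and the p53 axis. The dashed line is the median of all ranked genes at 0.40. Of the members only Pmaip1 lies above it, while 5 of the 6 apoptosome and caspase genes do, Casp8 only just at 0.406.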

How the data were processed

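Single-embryo Smart-seq2 libraries, which keep no strand, were sequenced by the authors. Per the labels and the study's methods, reads were assigned to RefSeq transcripts (mm10) with Salmon 0.7.2, summed to genes with tximport and normalized with DESeq2 1.18.1, and reads on exons and introns were counted with featureCounts after STAR. The authors deposited, as signal, the mean normalized count over all embryos of a stage. They also deposited fold changes and adjusted p-values of genotype comparisons, which were not used. The genotype test planned here needs values per embryo and was not run. The in vitro methylation table (2 input and 2 m6A-IP libraries) was not used.

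Shares were means over the stage total. Levels per kb used mean RefSeq transcript length, which 371 genes lacked. Genes with an average of both stage means of at least 10 were ranked, and percentiles per kb used those with a length. Unique exons were summed per gene. Introns overlapping exons of their own gene were left out, and of overlapping introns the shortest was kept. All 10 members are named, as are list genes highest or lowest per kb or matching a member's role. Members and lists were chosen with earlier results of these data known, and 2 genes of the caspase list are not reported here. Replicates are separate embryos, but only their mean was at hand, so neither spread nor intervals are given. Scripts were checked on simulated data. Python 3.11.15, pandas 2.3.3, numpy 2.4.6 and samtools were used.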

Additional observations from a re-analysis of the deposited data

How the results depend on the processing

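With exon sums in place of Salmon gene counts, Mcl1 had a log2 ratio between stages of 0.020 and Bcl2 of -0.33, and by the last exon alone, an alternative added after seeing the data, Mcl1 was at 0.57, Bcl2 at -1.82 and Bbc3 at 0.034, each of opposite sign to the value in the report. The cause was not tested. The number of ranked members higher at E3.5 was then 2 by exon sums and 3 by last exons. The number at least 2-fold higher was 1 by last exons and 1 at a fold of 1.5, and the number at least 2-fold lower was 1 by last exons. The shares of all genes under these settings were not counted, so these numbers have no background. The other counts stayed within 1.5 times those reported. The ratio of anti-apoptotic to pro-apoptotic members was 0.225 at E2.5 and 0.144 at E3.5 without the highest member of each side, and 0.154 and 0.198 by exon sums. Percentiles per kb moved by at most 12.9 points by exon sums, 8.78 by the union of exons as length and 29.6 without the filter on low values. Without introns of at least 1 kb, the intron signal turned its direction between stages in Bcl2l1, from 2.01% and 8.24% to 10.7% and 2.57%, and in Bcl2l11, from 0.970% and 2.62% to 2.36% and 2.21%. The introns then left in Bcl2l1 and Bcl2l11 each had a mean count below 1 at E3.5, so no direction can be given. In Bad the intron signal moved to 2.05% and 5.87% and in Bax to 1.05% and 1.08%, and Mcl1 has no intron of that length. No paired analysis was possible because the tables hold no value per embryo, and the fits by genotype, other normalizations and left-out embryos were not run for the same reason. Depth limits Bak1 and Bcl2, whose means are near or below the filter.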
